A study of Homo sapiens with 6 samples.

Results

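The ciliary transition zone was described here through 10 genes, TMEM67 and 9 genes whose proteins assemble with it, out of 15894 genes measured in RKO cells. RKO is a human colon carcinoma cell line, and all samples were of this line. The shCIRC cells carried a short hairpin RNA against the circular RNA hsa_circ_0064559, and the shEV cells carried the control construct, which the labels name both an empty vector and a nonsense hairpin. Both constructs were introduced by lipid transfection, and the level of the circular RNA itself was not analysed here. Each group held 3 samples, each on 1 Affymetrix PrimeView array. The arrays set 1 hairpin against 1 control construct, so an effect of losing the circular RNA and any other effect of this hairpin cannot be told apart. The sequences given for the hairpins are shown because they define the groups.
shCIRC hairpin: tttattatagcctgccacagc
shEV hairpin: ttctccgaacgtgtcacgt

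The primary cilium is a single antenna-like projection of the cell surface, and the transition zone is the gate at its base that controls which membrane and signalling proteins may enter. Its MKS module is built from membrane proteins, such as meckelin (the product of TMEM67), the tectonics and TMEM231, and from the scaffold and B9 domain proteins beneath the membrane. Mutations in these genes cause Meckel and Joubert syndromes, which are inherited disorders of the cilium. Cultured cells generally form primary cilia when they leave the cell cycle and lose them when they divide.

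The 10 genes were chosen with the shCIRC and shEV results in view. TMEM67 is treated as selected on its difference between the groups, and the other 9 genes share the structure it belongs to. The differences of all 10 genes are therefore given as a description, and no p-value is printed for them. Every gene was found under a single gene symbol, with 25 probe sets in all. A probe set is a group of short probes for the same transcripts, and the brightest probe set over the 6 arrays was the main one for each gene. Signals are log2 values normalized by the authors, and a difference of 1 is a doubling. Levels were not compared between genes, because probe sets differ in brightness. In bulk RNA, a higher share of cells that express a gene and more RNA per cell cannot be told apart.

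The arrays were alike in overall signal, with medians between 6.82 and 6.85, and correlated with r of 0.9985 to 0.999 within a group and of 0.9898 to 0.9904 between groups across genes. Nothing in the labels tells separate cultures from repeats of a single culture, so the tests measure the spread between these samples only, which may be technical. The signal of the control probe sets at the 3′ end minus that at the 5′ end, a sign of RNA quality, was lower in shCIRC for both GAPDH (-0.16 ± 0.02 in shEV and -0.30 ± 0.02 in shCIRC, SD, n = 3) and ACTB (0.13 ± 0.02 and -0.01 ± 0.03, SD, n = 3). The part of RNA quality in the results given here was not tested.

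TMEM67 had the largest difference of the 10 genes. Its log2 signals were 8.31, 8.30 and 8.28 in shEV and 9.69, 9.68 and 9.73 in shCIRC. The 3 shCIRC arrays lay close together and far above all shEV arrays. The means were 8.30 ± 0.02 and 9.70 ± 0.03 (SD, n = 3), a log2 difference of 1.40 (standard error 0.03) or a 2.64-fold higher signal. Among all 15894 genes this difference had rank 16 from the top.

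All 5 probe sets of TMEM67 were higher in shCIRC without overlap of the groups, but by different amounts. The log2 difference was 1.61 (standard error 0.08) for the second brightest probe set, with signals of 7.23, 7.29 and 7.54 in shEV and 8.97, 8.92 and 8.98 in shCIRC. It was smallest for the next brightest, 0.72 (standard error 0.08), with signals of 6.32, 6.24 and 6.44 in shEV and 7.02, 6.95 and 7.20 in shCIRC. The 2 dimmest had log2 differences of 1.20 (standard error 0.06) and 1.11 (standard error 0.06). In the deposited annotation, which names no genome build, the main probe set lies on chromosome 8 from 94767122 to 94822199 on the plus strand. The probe set with the smallest difference and the dimmest have the same position, from 94767071 to 94830346, and differ unequally all the same. The second brightest is of the type _x_at, some of whose probes may bind other transcripts.

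**Figure D1:**
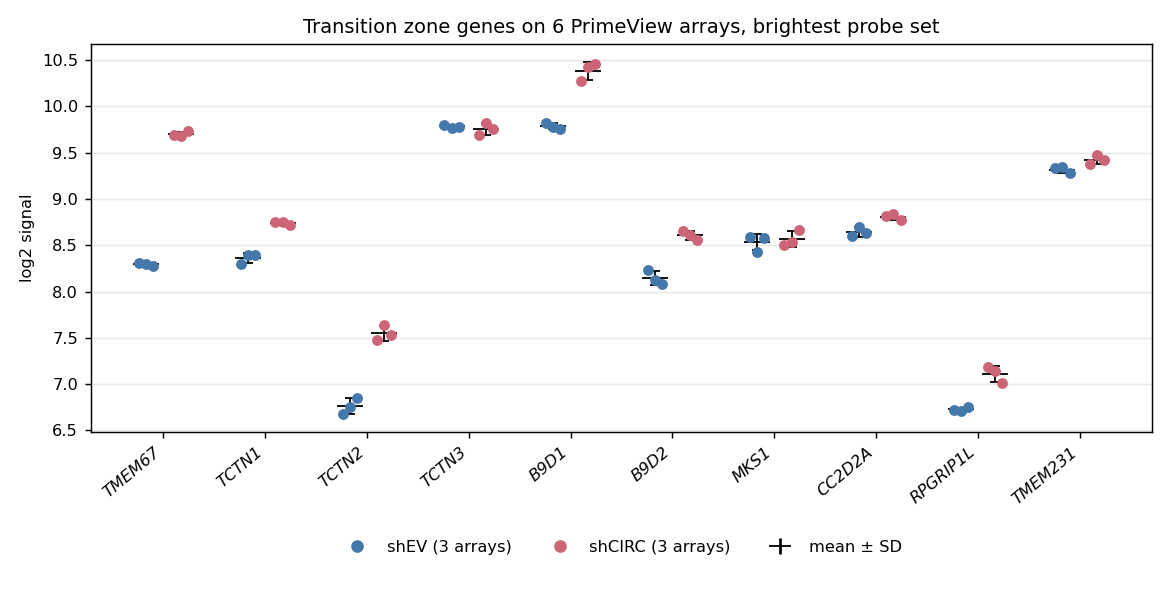
Log2 signal (y axis) of the brightest probe set of each of the 10 transition zone genes (x axis) on the 3 shEV and the 3 shCIRC arrays, with the mean and SD of each group. The groups lie farthest apart for TMEM67 (8.30 and 9.70) and TCTN2 (6.76 and 7.55), and they overlap for TCTN3 and MKS1.

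The tectonics are secreted and membrane-bound proteins of the transition zone. Of the 3, TCTN1 and TCTN2 were higher in shCIRC, and the groups overlapped in TCTN3. In the deposited annotation, the main probe set of TCTN1 lies on chromosome 12 from 111081582 to 111086930. Its other probe sets start at 111051831 and 111051896. The main probe set of TCTN2 lies on chromosome 12 from 124155659 to 124192942 and that of TCTN3 on chromosome 10 from 97423152 to 97453900. TCTN2 had log2 signals of 6.68, 6.75 and 6.85 in shEV and 7.48, 7.64 and 7.53 in shCIRC. All shCIRC arrays lay above all shEV arrays. The log2 difference was 0.79 (standard error 0.06), the second highest of the 10 genes. TCTN1 had 8.30, 8.39 and 8.39 in shEV and 8.75, 8.75 and 8.72 in shCIRC, a log2 difference of 0.38 (standard error 0.04). Its 3 probe sets were all higher in shCIRC, by 0.30 to 0.57, and the groups overlapped in none of them. The brightest of them is of the type _s_at, which can be shared with transcripts of other genes. TCTN3 had 9.80, 9.77 and 9.78 in shEV and 9.69, 9.82 and 9.76 in shCIRC. Its groups overlapped, and its log2 difference was -0.03 (standard error 0.04).

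The B9 domain proteins B9D1, B9D2 and MKS1 form a complex within the MKS module. Chromosome 17 holds the main probe sets of B9D1 (19246755 to 19266034) and, farther along, MKS1 (56282802 to 56296601). That of B9D2 is on chromosome 19 (41860323 to 41870230). B9D1 had log2 signals of 9.82, 9.78 and 9.76 in shEV and 10.27, 10.42 and 10.46 in shCIRC. Its log2 difference was 0.59 (standard error 0.05), and those of its other probe sets were 0.49 and 0.43. B9D2, which has 1 probe set, had 8.23, 8.13 and 8.08 in shEV and 8.65, 8.61 and 8.56 in shCIRC, a log2 difference of 0.46 (standard error 0.05). In both genes every shCIRC array lay above every shEV array. MKS1, named for Meckel syndrome, had 8.59, 8.43 and 8.58 in shEV and 8.50, 8.54 and 8.66 in shCIRC. The groups overlapped in all 3 of its probe sets, whose log2 differences ran from -0.0042 to 0.05. The main probe sets of MKS1 and of RPGRIP1L are of the type _x_at.

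The main probe sets of the other scaffolds were also higher in shCIRC. The main probe set of CC2D2A lies on chromosome 4 from 15471488 to 15603180 and that of RPGRIP1L on chromosome 16 from 53633817 to 53737742. CC2D2A, a scaffold of the MKS module with C2 domains, had log2 signals of 8.60, 8.70 and 8.63 in shEV and 8.82, 8.84 and 8.77 in shCIRC, a log2 difference of 0.17 (standard error 0.04). RPGRIP1L, a scaffold that anchors the gate at the base, had 6.72, 6.71 and 6.75 in shEV and 7.18, 7.14 and 7.01 in shCIRC, a log2 difference of 0.38 (standard error 0.05). Its other 3 probe sets were dimmer and differed less, by 0.30, 0.16 and 0.02, and the groups overlapped in the first and the last of these.

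TMEM231, a membrane protein of the MKS module, differed from probe set to probe set. Its main probe set lies on chromosome 16 (75572053 to 75590184). The brightest had log2 signals of 9.33, 9.34 and 9.28 in shEV and 9.38, 9.47 and 9.42 in shCIRC, which did not overlap but differed by only 0.11 (standard error 0.04). The other 2 probe sets had log2 differences of 0.53 (standard error 0.05) and 0.43 (standard error 0.06), again without overlap. The plot of every probe set shows this gap within TMEM231 beside the closer values of B9D1.

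**Figure D2:**
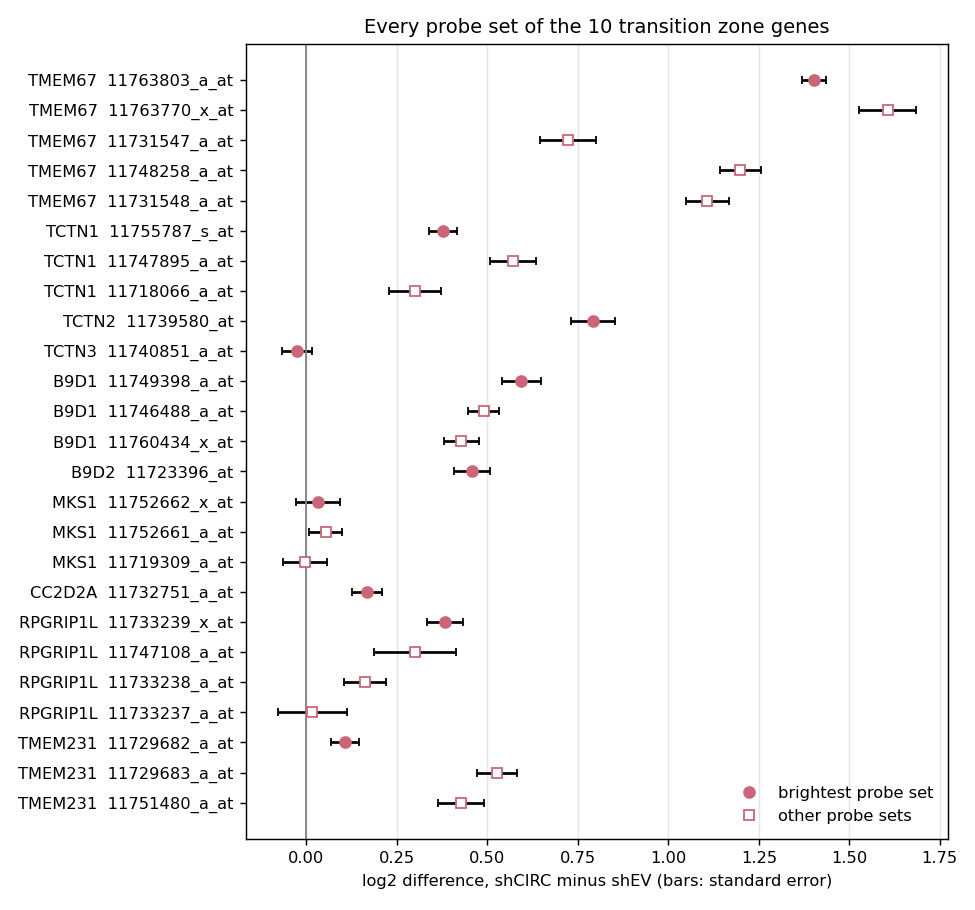
Log2 difference between shCIRC and shEV (x axis, bars are standard errors) for each of the 25 probe sets of the 10 genes (y axis), with filled circles for the brightest probe set of a gene and open squares for the others. The probe sets of TMEM67 run from 0.72 to 1.61 and those of MKS1 lie close to 0, while in TMEM231 the brightest probe set has the smallest difference.

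In the fit over all genes with limma, a gene was called when its p-value, adjusted by Benjamini-Hochberg over all genes, was under 0.05. In that fit 22.8% of all genes were called higher and 24.7% lower in shCIRC. Of the 10 transition zone genes, 7 were called higher and 0 lower, and TCTN3, MKS1 and TMEM231 were not called. Because the genes were chosen with this comparison in view, nothing is read from this count. At an unadjusted p under 0.05, 8 of the 10 genes passed, as did 52.8% of all genes. The groups did not overlap in 8 of the 10 genes and in 56.0% of all genes. Of the 25 probe sets, 17 were called higher in a fit of each probe set on its own, in which 25.6% of all probe sets were called higher. The 17 include 1 of the 4 probe sets of RPGRIP1L and 2 of the 3 of TMEM231. The median log2 difference was 0.38 over the 10 genes and 0.00 over all genes.

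The RFX transcription factors bind the X-box, an inverted repeat in the promoters of many ciliary genes, and the promoters of the 10 genes were searched for the letters of its arm. Promoters of 300 bases from RefSeq (GRCh38.p14, 250 bases before the start site and 50 after) were at hand for 8 of the genes, and not for TMEM67 and TCTN2. The arm GTTGCC was searched on both strands. It was present in the promoters of 5 of the 8 genes (6 of their 12 promoters) and in those of 14.6% of the 27305 genes of the table (12.2% of its 35116 promoters). Among the 12516 genes of the table that were measured on the arrays, the share was 16.7%. The longer form GTTGCCATG was in none of the 8 and in 1.00% of the genes. The matches are written on the strand of the gene, with the arm in capitals. Their positions follow GRCh38.p14 and cannot be compared with those of the deposited annotation, which differ from them. Of the 5 genes, TCTN1 and B9D2 were called higher and TCTN3, MKS1 and TMEM231 were not. B9D1, CC2D2A and RPGRIP1L, which were called higher, do not hold these letters in this window.
TCTN1 promoter, chr12:110614121-110614149, plus strand: ctgtcgcgGTTGCCgGGCAACgcgctgtc
TCTN3 promoter, chr10:95694122-95694150, minus strand: cactgacgGTTGCCaGGCAACggaggcac
TMEM231 promoter, chr16:75556264-75556292, minus strand: GTTGCCgtggagaccgaggcgatGGCAAC
B9D2 promoter, chr19:41364144-41364165, minus strand: agcctgctGTTGCCccagcaac
MKS1 promoter, chr17:58219276-58219297, minus strand: gcgtctccGTTGCCaggaaaac

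In TCTN1 and TCTN3 the arm faces its own reverse complement across 1 base, whereas the same arms of TMEM231 are 17 bases apart. A search for both arms with at most 3 bases between them, which was added after these matches had been seen, found them in 0.20% of all genes of the table and in 2 of the 8 genes. In TCTN1 the pair begins at the start site itself, and in TCTN3 it begins 215 bases before it. A match is a stretch of letters and not a measured binding site.

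A list of 10 genes for RFX and other ciliogenesis transcription factors was examined, of which 7 were measured on the same arrays. Of the 7 measured factors, 4 rose and 1 fell, against 22.8% and 24.7% of all genes, with a median log2 difference of 0.12. RFX3, a regulator of ciliary genes, had log2 signals of 5.76, 5.57 and 5.72 in shEV and 6.39, 6.48 and 6.44 in shCIRC. It rose by 0.75 on the log2 scale (standard error 0.06, adjusted p = 5.7e-05 from limma), and its 2 probe sets agreed in direction. RFX5, which is known for the control of MHC class II genes rather than cilia, rose by 0.77 (standard error 0.03, adjusted p = 4.6e-06 from limma). RFX7 and RFX1 rose by 0.21 and 0.12, and RFX2 fell by 0.21, with an adjusted p of 0.040 for RFX2 from limma and overlapping groups. All 3 probe sets of RFX2 were called lower, with log2 differences from -0.26 to -0.20. Of the 3 probe sets of RFX7, 2 were not called. Without shCIRC replicate 1, 2 of these factors were called higher and 0 lower. FOXJ1, the master regulator of motile cilia, had a log2 difference of -0.06 (adjusted p = 0.62 from limma).

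Other parts of the transition zone showed changes in single genes. The NPHP module is a second set of gate proteins that lies nearer to the microtubules. RPGR, a GTPase regulator of this region, had log2 signals of 7.98, 8.03 and 7.91 in shEV and 8.42, 8.36 and 8.40 in shCIRC. It rose by 0.42 on the log2 scale (standard error 0.04, adjusted p = 1.9e-04 from limma), and ATXN10 rose by 0.26 (standard error 0.04, adjusted p = 0.0018 from limma). NPHP4 and IQCB1 were not called, with log2 differences of 0.11 and 0.02. Of these 4 genes of the module, 2 rose and 0 fell, against 22.8% and 24.7% of all genes. Their median log2 difference was 0.19. At an unadjusted p under 0.05, 2 passed, a share close to the 52.8% of all genes.

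The MKS module genes outside the 10 went both ways. Of 9 genes, 3 rose and 3 fell, against 22.8% and 24.7% of all genes, and the median log2 difference was -0.01. TMEM17, a small membrane protein of the module, rose by 0.39 (standard error 0.07, adjusted p = 0.0028 from limma). TMEM80 fell by 0.47 (standard error 0.07, adjusted p = 0.0014 from limma), although 1 of its 3 probe sets was not called and had a log2 difference of 0.10. In the inversin compartment, the segment of the cilium just beyond the transition zone, 1 of 4 genes fell and 0 rose, and at an unadjusted p under 0.05 it was again 1 gene, against 52.8% of all genes. The share that fell is close to the 24.7% of all genes. That gene was ANKS6, with a log2 difference of -0.24 (standard error 0.05, adjusted p = 0.0045 from limma).

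**Figure D3:**
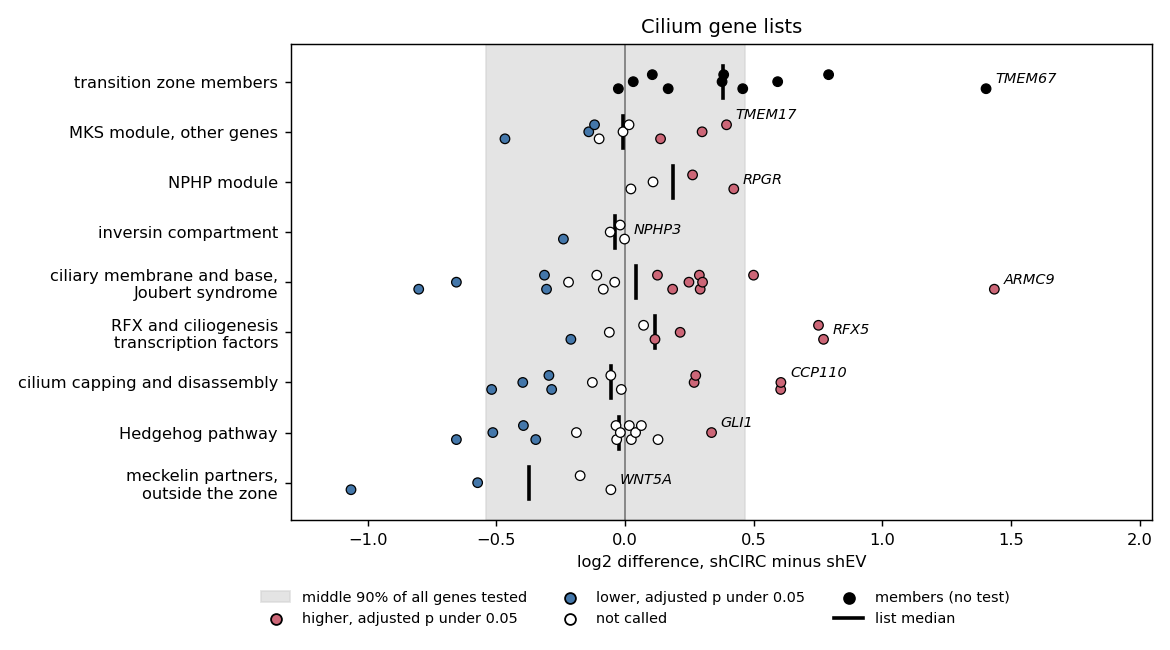
Log2 difference between shCIRC and shEV (x axis) for the genes of each cilium list (y axis), 1 point per gene, with red points for genes called higher, blue points for genes called lower, open points for genes not called, black points for the 10 transition zone genes and a bar for the list median. The grey band holds the middle 90% of all genes, from -0.54 to 0.47, and TMEM67 and ARMC9 lie far to its right.

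Genes of the ciliary membrane and base that are mutated in Joubert syndrome, like several of the 10, also went both ways. Of 16 genes, 8 rose and 4 fell, against 22.8% and 24.7% of all genes, with a median log2 difference of 0.04. ARMC9, a protein of the ciliary base and tip, had log2 signals of 7.87, 7.97 and 8.03 in shEV and 9.35, 9.43 and 9.40 in shCIRC. It rose by 1.44 (standard error 0.05, adjusted p = 4.1e-06 from limma), and its other probe set by 0.66. CEP41, which is needed for tubulin glutamylation in the cilium, had 9.35, 9.47 and 9.40 in shEV and 8.65, 8.58 and 8.59 in shCIRC. It fell by 0.80 (standard error 0.04, adjusted p = 1.5e-05 from limma), and all 5 of its probe sets fell.

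Proteins that cap the mother centriole or take the cilium apart help to decide whether a cilium can form. Of 11 measured genes on this list, 4 rose and 4 fell, against 22.8% and 24.7% of all genes. The median log2 difference was -0.06. CCP110, which caps centrioles and blocks cilium growth, had log2 signals of 9.45, 9.48 and 9.51 in shEV and 10.05, 10.13 and 10.08 in shCIRC. It rose by 0.61 (standard error 0.04, adjusted p = 2.1e-05 from limma). Its binding partner CEP97, named here after its value was seen, rose by 0.60 (standard error 0.03, adjusted p = 2.1e-05 from limma). TTBK2, the kinase that removes the cap, fell by 0.52 (standard error 0.07, adjusted p = 7.0e-04 from limma), but 1 of its 3 probe sets was not called and had a log2 difference of 0.04. Of the other called genes, NEK2 and KIF2A rose, by 0.27 each, and AURKA, PLK1 and KIF24 fell, by 0.29, 0.40 and 0.30. Not every probe set of NEK2, KIF2A and KIF24 was called.

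Hedgehog signalling passes through the cilium and depends on the transition zone gate. Of 14 measured genes, 1 rose and 4 fell, against 22.8% and 24.7% of all genes. The share that fell is near that of all genes, and the median log2 difference was -0.03. GLI1, a transcription factor that is also a target of the pathway, had low log2 signals of 5.40, 5.45 and 5.45 in shEV and 5.65, 5.83 and 5.84 in shCIRC. It rose by 0.34 (standard error 0.06, adjusted p = 0.0024 from limma). SUFU, the inhibitor of the GLI factors and also a member of the Joubert list, fell by 0.66 (standard error 0.03, adjusted p = 1.4e-05 from limma), but 4 of its 6 probe sets were not called. GAS1, GPR161 and CDON also fell, by 0.51, 0.40 and 0.35. All 3 probe sets of GPR161 were called lower, and 1 of the 3 of GAS1 was not called. CDON had low log2 signals, with means of 4.93 in shEV and 4.59 in shCIRC. PTCH1, a receptor that is also a target, had a log2 difference of 0.04 (adjusted p = 0.39 from limma), while 1 of its 3 probe sets was called lower. Without shCIRC replicate 1, 2 genes of the list were called higher. The brightest probe set of SMO, the signal transducer that enters the cilium, had a log2 difference of 0.02 (adjusted p = 0.86 from limma). Its signal was low, with a mean of 5.22 over the 6 arrays.

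Of 4 partners of meckelin outside the transition zone, 2 fell and 2 were not called, while 24.7% of all genes were called lower. The median log2 difference of the 4 was -0.37. FLNA, the actin crosslinker filamin A, had log2 signals of 11.95, 12.03 and 11.97 in shEV and 10.91, 10.94 and 10.91 in shCIRC. It fell by 1.07 (standard error 0.03, adjusted p = 3.2e-06 from limma), to 0.478 times the shEV signal, and its 3 probe sets fell alike. SYNE2, which encodes nesprin-2 of the nuclear envelope, fell by 0.57 (standard error 0.07, adjusted p = 5.0e-04 from limma) and in all 5 of its probe sets. The receptor ROR2 and its ligand WNT5A were not called, with log2 differences of -0.17 and -0.06. Both had low log2 signals, with means over the 6 arrays of 4.85 and 4.68. The 20th percentile of an array was between 4.50 and 4.54.

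**Figure D4:**
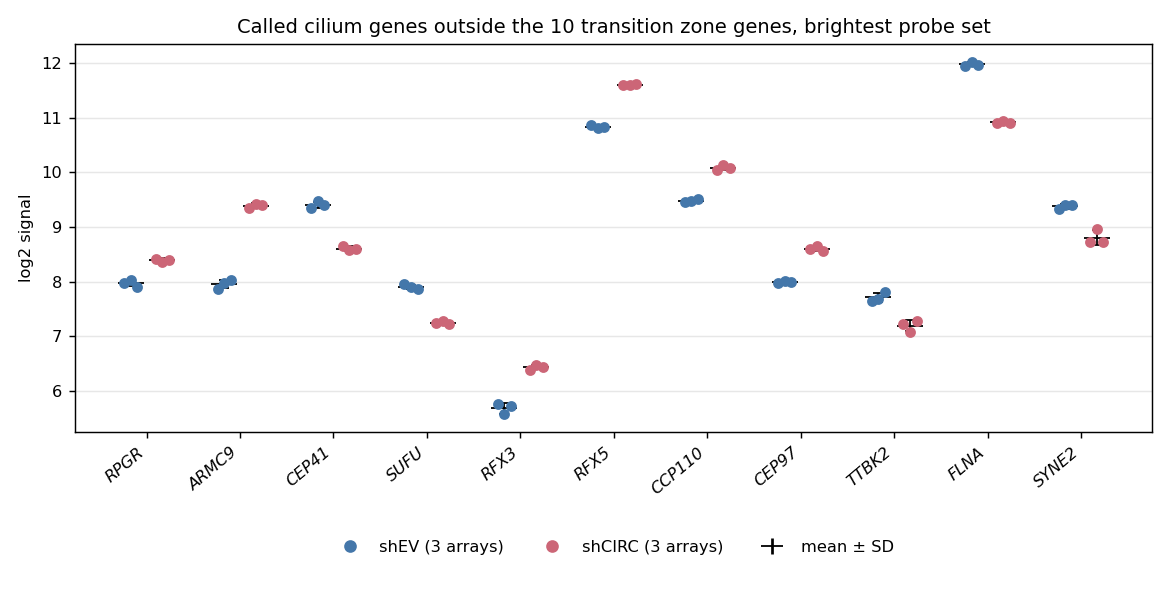
Log2 signal (y axis) of 11 genes of the cilium lists outside the 10 (x axis) on the 3 shEV and the 3 shCIRC arrays, with the mean and SD of each group. Only genes called in the fit over all genes are shown, so differences between the groups follow from this choice. ARMC9 (7.96 and 9.39) is higher in shCIRC and FLNA (11.98 and 10.92) is lower, without overlap of the groups.

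Across the 6 arrays, the genes with the pattern most like TMEM67 were RPUSD4, ABAT, LXN, PIK3IP1 and CREBL2. Likeness was the Euclidean distance between log2 signals after each gene was centred on its own mean, over all genes, and ran from 0.09 for RPUSD4 to 0.13 for CREBL2. Their log2 differences were between 1.33 and 1.44, and none of these genes is on the cilium lists. With 2 groups, the measure mostly finds genes with a difference of the same size.

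The nearest measured genes on either side of TMEM67 did not share its difference. The main probe set of RBM12B starts at 94743457 on the same chromosome in the deposited annotation. RBM12B had log2 signals of 9.61, 9.57 and 9.66 in shEV and 9.59, 9.49 and 9.55 in shCIRC. Its log2 difference was -0.07 (standard error 0.04, adjusted p = 0.21 from limma). The main probe set of PDP1, which encodes a mitochondrial phosphatase, starts at 94929082. PDP1 fell by 0.30 (standard error 0.04, adjusted p = 0.0013 from limma).

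Markers of multiciliated cells, in which transition zone genes are also used, were in part higher in shCIRC. Of 5 measured markers of 6, 2 rose and 0 fell, against 22.8% and 24.7% of all genes. RSPH1, a protein of the motile axoneme, rose by 0.65 (standard error 0.04, adjusted p = 2.6e-05 from limma) from a low signal, and DNAI1, a dynein chain, rose by 0.20 (standard error 0.06, adjusted p = 0.040 from limma), in 1 of its 3 probe sets. The count of 2 was 1 without either shEV replicate 1 or 2, or shCIRC replicate 2 or 3, and also with the replicate number as a block. FOXJ1, DNAH5 and TPPP3 were not called. The summed linear signal of the 5 markers ran from 299.1 to 313.5 in shEV and from 343.9 to 356.8 in shCIRC. Most of this rise came from RSPH1 alone, with mean log2 signals of 5.99 in shEV and 6.63 in shCIRC. The part of this rise in the transition zone results was not tested. Of the colon epithelium markers, 6 of 9 were measured, and CDH1, KRT20 and VIL1 were not among the genes tested. EPCAM and KRT18 fell by 0.46 and 0.30, KRT8 rose by 0.53, and the summed signal ran from 3284.6 to 3477.0 in shEV and from 2862.8 to 2979.8 in shCIRC. Most of this sum and of its fall came from KRT18 alone, with mean log2 signals of 11.25 in shEV and 10.95 in shCIRC. Of the measured fibroblast (3 of 6) and endothelial (3 of 3) markers, 0 were called with limma, and 1 and 0 passed at an unadjusted p under 0.05, against 52.8% of all genes. Without shCIRC replicate 1, or with the replicate number as a block, 1 fibroblast marker was called lower. Of the 2 leukocyte markers measured of 4, CD68, a lysosomal protein that is not restricted to leukocytes, fell by 1.23, and CD3E had a log2 difference of -0.03.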

How the data were processed

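The 6 samples were grouped by their titles into 3 shEV and 3 shCIRC. Signals were brought to a common distribution across arrays by the authors (quantile normalization) and deposited on a log2 scale. The submitters' processing notes name GCOS 1.4. How background was corrected, how probes were combined and which genome build the annotation follows are not given in the sources used. The annotated table kept 39269 of 49395 probe sets. The same number exceeded the 20th percentile of an array on 4 or more arrays. Its columns with the authors' own comparison (the authors' p-value and FDR, log2 fold change, ratio and signed fold as a score) were not used.

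Of the probe sets, 73 controls, 1539 with several symbols and 199 with none were left out. Symbols of the other 37458 were updated by Entrez number (37380 matched, RefSeq of GRCh38.p14). The brightest probe set was kept for each of 15894 genes. The R 4.3.3 package limma 3.58.1 (lmFit, eBayes) gave the differences, and a gene was called at a Benjamini-Hochberg adjusted p under 0.05 over all genes. Standard errors of other probe sets come from the same fit over all probe sets. The script was tested on simulated data.

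The 10 genes and the lists were chosen with earlier results of these data known. The lists were fixed by function, and 1 listed gene is not reported here. From each list, the called genes with the largest rise and the largest fall are named, with every gene of a list of 5 or fewer called genes allowed. For the list of capping and disassembly genes, every called gene is named, a choice made after the values were seen. The number of arrays limits the precision. The alternatives were other scalings, a filter on dim genes, other uses of the probe sets, other tests, other thresholds, a block for the replicate number and fits without each array in turn. Protein features planned for the tectonics and B9 proteins were not analysed here.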

Additional observations from a re-analysis of the deposited data

How the results depend on the processing

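The count of transition zone genes called higher was between 5 and 8 under the alternatives with all 10 genes, and 0 were called lower in each. It was 5 with a fold above 1.3 added and 6 at an adjusted p under 0.01. With each probe set on its own, 17 of 25 were called higher. The 3618 higher and 3928 lower calls over all genes became 1183 and 1498 when a fold above 1.3 was asked for, and 9606 and 9223 with each probe set on its own. Leaving out 1 array gave 3177 to 3433 higher, 3540 to 3782 lower, and 7 to 8 transition zone genes higher. The log2 difference of TMEM67 ran from 1.21, with the mean of its probe sets, to 1.43 over its 15 alternatives. TMEM231 was called in 6 of 15, among them the fit without shCIRC replicate 1 (0.13) and the mean of its probe sets (0.35). The single RFX2 call was lost without shEV replicate 2 or 3 and without shCIRC replicate 1 or 3, and with the methods' t-test and cyclic loess.

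The replicate numbers are not said to pair the samples. Deviations from the group means correlated by 0.07, 0.09 and 0.10 between samples of the same number, and each was the highest of its sample, which is only a hint. With the replicate number as a block, 3591 genes were higher and 3842 lower, and 7 transition zone genes were higher. The block moved 5 list counts by 1 call each. Fewer genes were higher among the Joubert genes (7), the RFX factors (3) and the multiciliated markers (1), and more were lower among the Hedgehog genes (5) and the fibroblast markers (1). The multiciliated count was 1 as well with the methods' t-test, with trend and robust, with the mean of the probe sets and under both stricter thresholds. The alternative without the low-signal filter was not run, because no table of probe sets and genes for the whole value table was at hand.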
